A study of Mus musculus with 4 samples.

Results

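Osteoblast lineage genes were followed in ST2 cells, an established fibroblast-like line of bone marrow stromal cells from BALB/c mice, untreated and after low-intensity pulsed ultrasound (LIPUS), which stimulates cells mechanically and is applied to healing fractures. The set was chosen by symbol and held 10 genes, namely the transcription factor genes Runx2 and Sp7, the ligand and receptor genes Bmp2 and Pth1r, the mineralisation enzyme gene Alpl, and the matrix genes Bglap, Ibsp, Spp1, Sparc and Postn. The platform annotation used here paired 7 of the 10 with a probe set, out of 18193 genes that had one. Runx2, Spp1 and Bglap were paired with none, alone or among several symbols, and have no signal values here. Of the 45101 probe sets with values, 9160 were not listed in this annotation. Whether any of the unlisted probe sets read Runx2, Spp1, Bglap or another gene named here was not tested. Probe set counts per gene are therefore counts of listed probe sets. The 7 genes had 10 probe sets, each annotated to 1 symbol.

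The control array held untreated cells grown at 37 °C. Each of the other 3 arrays held cells given LIPUS for 20 min at 25 mW per square cm and kept in culture at the same temperature for a further 0.5, 1 or 3 h. All cells grew in medium with 10% serum, with no osteogenic supplement named in the labels. Each group was 1 array of RNA from 1 established line, so no value has a replicate error and no test was made, and the labels do not say whether the control cells were sham-handled or when they were harvested.

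Osteoblasts arise from mesenchymal stromal cells in steps. RUNX2 commits cells to the lineage and SP7, also called osterix, acts after it, while bone morphogenetic proteins such as BMP2 promote both. Committed cells lay down a matrix rich in type I collagen, SPARC and periostin, raise the tissue-nonspecific alkaline phosphatase that ALPL encodes, and later secrete the mineral-binding proteins of Ibsp, Spp1 and Bglap.

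Among the 7 genes with values, only 3 had signal above the floor, and of these Postn alone departed from the control by more than 0.1 on the log2 scale. The floor was the median of all values, log2 5.23, under which a probe set was taken as too dim for a ratio. Sp7, Sparc and Postn were above it on all 4 arrays. Alpl, Ibsp, Pth1r and Bmp2 were under it on all 4 arrays. By the rule of size used throughout, an absolute log2 ratio of 1 or more (2-fold), 0 of the 3 measured genes were past 2-fold against the control at any time. Over all genes measured, 0.138% were past 2-fold at 0.5 h, then 0.191% at 1 h and 0.0691% at 3 h, so a count of 0 among 3 is close to the background. In the steps between LIPUS times 0 of the 3 genes were past 2-fold as well, with 0.0435% of all genes past it from 0.5 h to 1 h and 0.087% from 1 h to 3 h.

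Upstream sequence is shown for Postn, the gene furthest from the control, and for Sparc, the gene read by the most probe sets. The sequences are from RefSeq on GRCm38.p6, run 5′ to 3′ on the strand of the gene and cover the 250 bases before each annotated start. Postn has 2 annotated starts on the plus strand of chromosome 3, at chr3:54359017-54359266 for the first window and chr3:54360857-54361106 for the second. Sparc has 1, on the minus strand of chromosome 11, at chr11:55420081-55420330. Capitals mark the motif TATAAA.
Postn, first start: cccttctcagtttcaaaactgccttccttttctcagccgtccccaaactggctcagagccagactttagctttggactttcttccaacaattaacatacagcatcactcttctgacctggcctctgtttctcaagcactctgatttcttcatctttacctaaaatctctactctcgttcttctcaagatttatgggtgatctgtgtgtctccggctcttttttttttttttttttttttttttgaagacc
Postn, second start: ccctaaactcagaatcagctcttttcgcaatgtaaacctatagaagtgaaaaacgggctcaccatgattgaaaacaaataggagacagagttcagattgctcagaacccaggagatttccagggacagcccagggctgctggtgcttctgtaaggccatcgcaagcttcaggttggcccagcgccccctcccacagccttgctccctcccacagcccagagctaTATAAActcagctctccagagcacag
Sparc: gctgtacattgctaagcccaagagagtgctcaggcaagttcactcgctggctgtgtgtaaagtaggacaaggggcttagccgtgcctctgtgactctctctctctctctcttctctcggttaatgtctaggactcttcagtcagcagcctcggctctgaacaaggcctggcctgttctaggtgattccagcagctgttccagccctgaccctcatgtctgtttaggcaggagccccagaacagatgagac
The second Postn window held TATAAA from 26 bases before the start, and the other 2 windows held none. The RefSeq table used here gave windows for 8 of the 10 genes, 13 windows in all, and 4 motifs were searched in them on both strands. TATAAA was in 5 of the 13, against 12.4% of 32851 windows of all genes. The RUNX core ACCACA was in 3 of the 13, against 14% of all. The 3 were at Runx2, Bglap and Spp1, which have no signal values here, and no window of a gene with values held it. The AP-1 motif TGANTCA, the site of FOS and JUN dimers, was in 0 of the 13 against 6.75% of all, and GAANNTTC, a part of the heat shock element, was in 0 against 6.69%. These are letter matches in a short window, and the last 3 motifs were absent from the windows of Postn and Sparc.

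Postn encodes periostin, a secreted matrix protein of periosteum and other load-bearing connective tissue that binds integrins. Its single probe set had a log2 signal of 6.45 on the control array, 6.65 at 0.5 h, 7.00 at 1 h and 7.03 at 3 h. The control array was thus the lowest of the 4, the 0.5 h array lay between, and the 1 h and 3 h arrays were the highest and nearly equal. The log2 ratio to the control was 0.20 at 0.5 h, 0.55 at 1 h and 0.58 at 3 h, the last a 1.49-fold difference and just short of 1.5-fold. The step from 0.5 h to 1 h, which does not use the control array, was 0.35, and that from 1 h to 3 h was 0.03.

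Of all genes measured, 131 of 11497 (1.14%) had a higher ratio than Postn at 1 h and 43 of 11574 (0.372%) at 3 h, against 705 of 11574 (6.09%) at 0.5 h. The 3 ratios share 1 control array. The only error open to measurement was technical, taken from how far the log2 ratios of a gene's 2 brightest probe sets differ, scaled to a single probe set. For probe sets with a mean log2 signal between the floor and 8, the range in which Postn lies, its SD was 0.128 at 0.5 h, 0.177 at 1 h and 0.155 at 3 h. This SD holds no spread between cultures and no error that the probe sets of an array share, since that cancels in the difference. No second probe set of Postn was listed to set beside the first.

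Some other measures were also higher on the 1 h and 3 h arrays than on the control array. Over 12 probe sets for spiked poly-A controls, the median log2 ratio was −0.05 at 0.5 h, 0.28 at 1 h and 0.41 at 3 h. Of the 12, those above their control value numbered 3, 12 and 12. For 18S ribosomal RNA, 3 probe sets had medians of 0.96, 1.91 and 1.79. Of 6 adipocyte markers with a probe set, 4 were above the floor, and their summed linear signal over all 6 was 2868 on the control array, 3233 at 0.5 h, 3297 at 1 h and 3338 at 3 h, with the defining markers Adipoq and Cidec under the floor. Of the 4, Fabp4, Lpl and Pparg were above the control at each time, and Cebpa was below it, with log2 ratios of −0.05, −0.12 and −0.07. The sum over chondrocyte markers was also above the control at each time, at 364, 404, 382 and 420 in the same array order. The muscle, haematopoietic and endothelial sums were below the control at 1 h and 3 h. The stromal sum was below it at 1 h and above it at 3 h. Whether any of these had a part in the values of Postn was not tested. In bulk RNA, a change in the number of cells expressing a gene and a change in RNA per cell cannot be told apart.

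**Figure D1:**
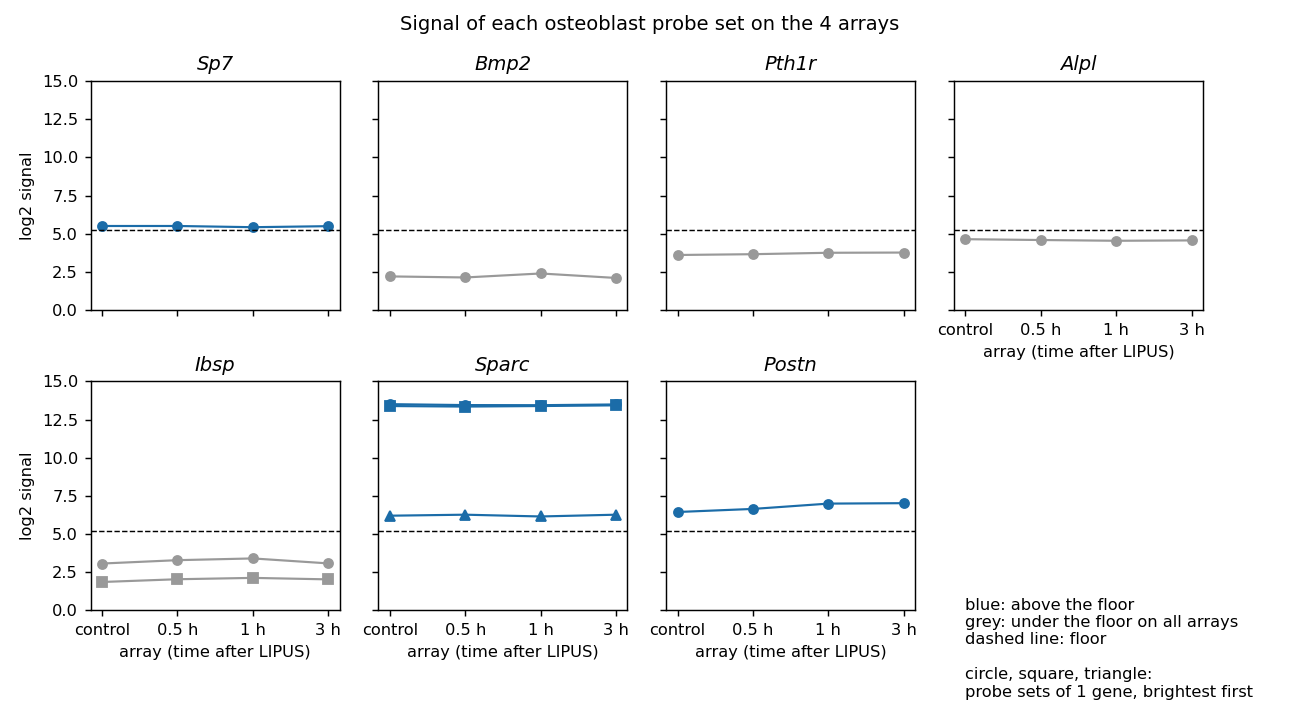
Log2 signal (vertical axis) of each of the 10 osteoblast probe sets on the control array and at 0.5, 1 and 3 h after LIPUS (horizontal axis), 1 panel per gene, with the floor of 5.23 as a dashed line. Postn reads 7.03 at 3 h against 6.45 in the control, Sp7 and the 3 probe sets of Sparc stay level, and Bmp2, Pth1r, Alpl and Ibsp lie under the floor throughout.

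Sparc encodes SPARC, also called osteonectin, a collagen-binding protein that is abundant in bone matrix. Its brightest probe set had a log2 signal of 13.51 on the control array, 13.45 at 0.5 h, 13.44 at 1 h and 13.49 at 3 h. The second read 13.38, 13.35, 13.38 and 13.43 on the same arrays, and the third read 6.21, 6.27, 6.16 and 6.27. The 4 arrays were level on every Sparc probe set, with the highest and lowest apart by 0.07, 0.08 and 0.12. The log2 ratio to the control by the brightest probe set was −0.06 at 0.5 h, −0.07 at 1 h and −0.02 at 3 h. The other bright probe set had −0.03, −0.00 and 0.05, so the pair differ in sign at 3 h. These values lie within the technical SD over all probe sets above the floor, which was 0.106 at 0.5 h, 0.157 at 1 h and 0.137 at 3 h.

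Sp7 encodes a zinc finger transcription factor required for osteoblast differentiation. It had a log2 signal of 5.51 on the control array, 5.51 at 0.5 h, 5.43 at 1 h and 5.50 at 3 h by 1 probe set. The 1 h array was the lowest by a small margin and the other 3 were equal to within 0.02. The log2 ratio to the control was 0.00 at 0.5 h, −0.08 at 1 h and −0.01 at 3 h. The signal stood only slightly above the floor, and a ratio this near background can be compressed.

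The ligand and receptor genes were dim. Bmp2, a secreted inducer of bone formation, had a log2 signal of 2.21 on the control array, 2.14 at 0.5 h, 2.40 at 1 h and 2.11 at 3 h. Pth1r, the receptor through which parathyroid hormone acts on osteoblasts, read 3.61, 3.66, 3.76 and 3.77 on the same arrays. All 8 of these values were under the floor, so no ratio is given and their order carries no meaning.

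The genes of mineralisation were dim as well. Alpl, whose enzyme frees phosphate for mineral, had a log2 signal of 4.65 on the control array, 4.59 at 0.5 h, 4.54 at 1 h and 4.57 at 3 h. Ibsp, which encodes the bone sialoprotein that nucleates mineral, read 3.07, 3.29, 3.41 and 3.08 by its brighter probe set and 1.87, 2.05, 2.13 and 2.04 by the other. All 12 values were under the floor, where a low level cannot be told from none, and no ratio is given.

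The wider cell state was read from marker lists. Of 12 stromal markers, 9 were above the floor on all 4 arrays, among them Col1a1, at a log2 signal between 13.69 and 13.88, and Pdgfrb, between 11.53 and 11.74, whereas Thy1, Lum and Dcn were under it. Of genes that mark osteocytes, Dmp1, Phex, Mepe, Sost and Fgf23 were under the floor on all arrays, whereas Pdpn, an early osteocyte marker that other cell types also express, was above it on all 4, at 8.65 on the control array, 8.45 at 0.5 h, 8.48 at 1 h and 8.43 at 3 h. Of the haematopoietic markers, the pan-leukocyte gene Ptprc was under the floor, and 2 of 6 were above it on all 4 arrays. These were Csf1r and Cd14, at 6.32 and 7.56 on the control array. Of 5 endothelial markers 1 was above the floor, Kdr, and of 6 muscle markers 2, Des and Acta1. Of 6 chondrocyte markers 3 were above it, Sox9, Col2a1 and Col10a1.

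Around these genes, 7 lists with 136 genes were read for the bone matrix, the partners of RUNX2 and SP7, BMP signalling, the PTH receptor pathway, receptors and partners of the matrix proteins, gamma-carboxylation and osteoclast coupling. At 1 h 102 of the 136 had a ratio, and 0 were past 2-fold at any time. Past 1.5-fold were 1 of 102 at 0.5 h, 2 of 102 at 1 h and 1 of 101 at 3 h. Over all genes measured, 0.475% were past 1.5-fold at 0.5 h, 1.28% at 1 h and 0.527% at 3 h. The 2 genes were Ggcx at each time and Omd at 1 h.

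**Figure D2:**
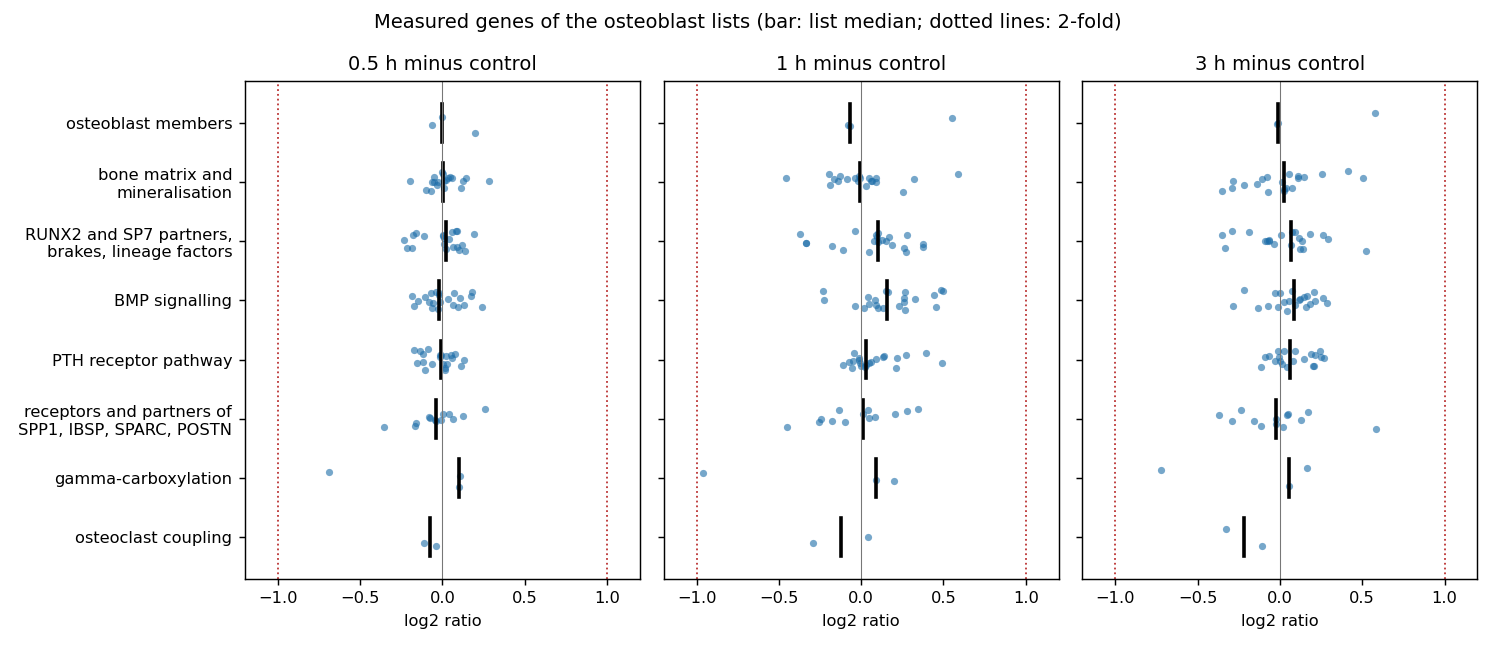
Log2 ratio to the control array (horizontal axis) for each measured gene of the osteoblast set and of the 7 surrounding lists (rows), at 0.5, 1 and 3 h after LIPUS (panels), with 1 point per gene, a bar at the list median and dotted lines at 2-fold. No point lies beyond the dotted lines, Ggcx at −0.96 at 1 h comes nearest, and the BMP list is centred at 0.16 at 1 h.

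In the bone matrix list, 20 of 32 genes had a ratio, and 0 were past 2-fold at any time. The list median was 0.01 at 0.5 h, −0.01 at 1 h and 0.03 at 3 h, beside 0.01, 0.02 and 0.01 over all genes. Omd, which encodes osteomodulin, a keratan sulfate proteoglycan of mineralised matrix, had a log2 signal of 6.26 on the control array, 6.54 at 0.5 h, 6.85 at 1 h and 6.77 at 3 h by its single probe set. As with Postn, the control was lowest and the 1 h and 3 h arrays highest, with log2 ratios of 0.28, 0.59 and 0.50. P3h1, a prolyl hydroxylase gene of collagen assembly, had log2 ratios of −0.03, −0.46 and −0.29, and its second probe set had −0.16, −0.33 and −0.44. Col1a2, chosen after its values were seen, is a type I collagen chain gene and had log2 ratios of 0.00, −0.01 and 0.03.

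In the list of RUNX2 and SP7 partners, brakes and lineage factors, 21 of 26 genes had a ratio and 0 were past 2-fold. The median was 0.03 at 0.5 h, 0.10 at 1 h and 0.07 at 3 h. Zfp521, a zinc finger gene whose product restrains RUNX2, had a log2 signal of 7.30 on the control array, 7.39 at 0.5 h, 7.68 at 1 h and 7.83 at 3 h. Its second probe set did not follow at 1 h, with log2 ratios of 0.04, −0.09 and 0.34 where the first had 0.09, 0.38 and 0.52. Dlx5, a homeobox gene that acts in osteoblast differentiation, had log2 ratios of 0.07, 0.38 and 0.29. Cbfb, the DNA-binding partner subunit of RUNX proteins, chosen after its values were seen, had 0.00, 0.05 and 0.01.

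Most measured genes of BMP signalling were above the control at 1 h, by less than 2-fold. Of 22 measured genes of 27, 9 were above 0 at 0.5 h, 19 at 1 h and 15 at 3 h. Over all genes 52.7%, 54.7% and 52.2% were above 0. In the list of RUNX2 and SP7 partners, 15, 15 and 12 of 21 genes were above 0 at these times. The median of the BMP list was −0.02, 0.16 and 0.08, beside 0.01, 0.02 and 0.01 over all genes, and 0 genes were past 2-fold. With the floor at the 75th percentile, which keeps brighter genes, the median over all genes at 1 h was 0.05. Of the BMP list, 14 genes had a ratio at 1 h with that floor, but their median was not taken, so the 2 cannot be compared there. On the 1 h array the poly-A controls had a median of 0.28 and 18S ribosomal RNA one of 1.91, and their part in the BMP values was not tested. Smad7, an inhibitory SMAD gene, had a log2 signal of 9.44 on the control array, 9.38 at 0.5 h, 9.93 at 1 h and 9.22 at 3 h. The 1 h array stood above the other 3. Its second probe set, at 7.61, 7.79, 8.41 and 7.57, was also highest at 1 h, but lay above the control at 0.5 h where the first lay below it.

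Id3, an early BMP target gene, had a log2 signal of 10.73 on the control array, 10.97 at 0.5 h, 11.23 at 1 h and 10.93 at 3 h, also highest at 1 h. In the step from 1 h to 3 h, which leaves the control array out, 2 of 22 genes of the list were past 1.5-fold, both lower at 3 h, where 0.452% of all genes were that much lower. These were Smad7 at −0.71 and Id2, another early target, chosen after its values were seen, at −0.72. The second Smad7 probe set had −0.84. The technical SD for that step, which leaves out error shared by the probe sets of an array, was 0.104.

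In the PTH receptor pathway, 21 of 28 genes had a ratio at 1 h and 0 were past 2-fold, with a median of −0.01 at 0.5 h, 0.03 at 1 h and 0.06 at 3 h. Nr4a2, a nuclear receptor gene that PTH induces, had a log2 signal of 6.12 on the control array, 6.20 at 0.5 h, 6.61 at 1 h and 6.37 at 3 h by the brightest of 6 probe sets. The others above the floor on all arrays had log2 ratios of 0.20 and 0.15 at 1 h, against 0.49 for the brightest. Without the floor applied, one more, above the floor on 2 arrays, differed from the control by −0.25 at 1 h. The pair under the floor on all arrays differed by −0.31 and 0.29, which are not counted as ratios. Gnaq, a G protein subunit gene that couples this receptor to phospholipase, had log2 ratios of 0.00, 0.40 and 0.27 by its brightest probe set, and its other probe sets ranged from −0.21 to 0.20 at 1 h.

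Among receptors and partners of the matrix proteins, 13 of 17 genes had a ratio and 0 were past 2-fold, with a median of −0.04 at 0.5 h, 0.01 at 1 h and −0.02 at 3 h. Sparcl1, which encodes a relative of SPARC, had a log2 signal of 6.19 on the control array, 6.45 at 0.5 h, 6.54 at 1 h and 6.77 at 3 h by 1 probe set. It was lowest in the control and highest at 3 h, with a log2 ratio of 0.58 at that time. Itga9, an integrin subunit gene, had log2 ratios of −0.04, −0.45 and −0.37 by the brightest of its 3 probe sets. That probe set read 5.84 on the control array and 5.39 at 1 h, near the floor. Its other probe sets were under the floor on all arrays.

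Gamma-carboxylation is the vitamin K-dependent step that lets osteocalcin, the product of Bglap, bind calcium. All 3 genes of this list had a ratio and 0 were past 2-fold. Ggcx, which encodes the carboxylase, had a log2 signal of 6.98 on the control array, 6.29 at 0.5 h, 6.02 at 1 h and 6.26 at 3 h. The control array was the highest, and the log2 ratios were −0.69, −0.96 and −0.72. Its other probe set lay under the floor on all arrays and read 4.26, 4.62, 4.75 and 4.52, in the opposite direction. Vkorc1l1, a vitamin K reductase gene, had log2 ratios of 0.10, 0.20 and 0.06.

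In the osteoclast coupling list, 2 of 3 genes had a ratio and 0 were past 2-fold. Csf1 encodes the macrophage growth factor that osteoclast precursors need. By the brightest of its 4 probe sets it had log2 ratios of −0.11 at 0.5 h, −0.29 at 1 h and −0.33 at 3 h. Of its other probe sets, 1 had 0.09, −0.09 and −0.07. The rest were lower than the control at each time, at −0.34 and −0.36 at 1 h. Tnfrsf11b, which encodes the decoy receptor osteoprotegerin, had −0.04, 0.04 and −0.11 by its brighter probe set. The other Tnfrsf11b probe set had 0.15, 0.10 and −0.05. Tnfsf11, the gene of the ligand that it traps, was under the floor on all arrays.

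**Figure D3:**
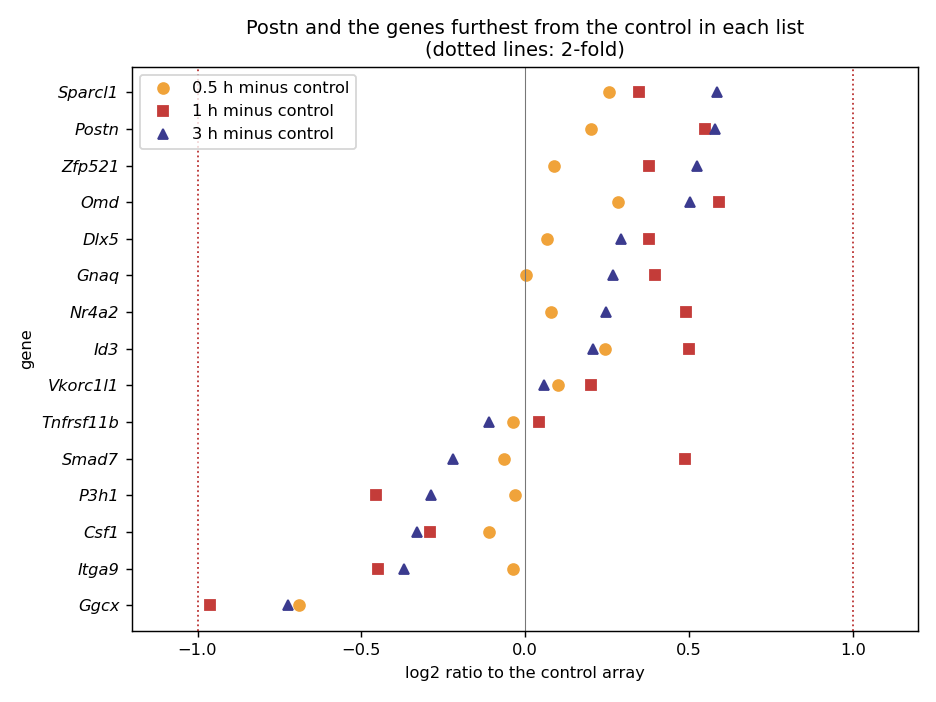
Log2 ratio to the control array (horizontal axis) at 0.5, 1 and 3 h after LIPUS (circles, squares, triangles) for Postn and the 2 genes furthest from the control in each of the 7 lists (rows, ordered by the 3 h ratio), with dotted lines at 2-fold. Sparcl1, Postn, Zfp521 and Omd lie furthest right at 3 h, Ggcx lies furthest left, and Smad7 and Id3 are higher at 1 h than at 3 h.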

How the data were processed

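Total RNA of 4 cultures was hybridised to Affymetrix mouse arrays, and per the labels' protocols 500 ng of it was labelled with a kit that primes at the poly-A tail, so signal comes mostly from the 3′ end of a transcript. The authors deposited 1 log2 value per probe set and array, for 45101 probe sets. The log base was taken from the range of 1.53 to 14.5, and the summarisation and scaling are not given in the sources used here. Median log2 signal ran from 5.21 to 5.25 over the arrays.

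Symbols came from the platform annotation, updated to RefSeq through the Entrez number. Only probe sets with a single symbol were used, and the brightest of a gene stood for it. Values under the floor were raised to it, and a gene with both arrays under it had no ratio. Differences for the further probe sets of a named gene were taken without the floor. Ratios were LIPUS minus control, and each LIPUS time minus the preceding one. The members and lists were chosen with earlier results of these data known. Named genes were all members, list genes past 2-fold and, in a list with none, the 2 with the largest ratio. No test was made, for want of replicate arrays. Alternatives covered floor, scaling, probe set choice and fold threshold. Python 3.11.15, numpy 2.4.6, pandas 2.3.3, R 4.3.3 and limma 3.58.1 were used.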

Additional observations from a re-analysis of the deposited data

How the results depend on the processing

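No paired analysis was possible because each group holds 1 array. With the floor at the 25th or 75th percentile or absent, with median centring, quantile normalization or cyclic loess, with other probe set choices and with a 1.5-fold or 3-fold rule, 0 osteoblast genes were past the rule in each of the 5 comparisons. Some of these settings could not have raised the count. A 3-fold rule is stricter than 2-fold, and no osteoblast gene had a probe set with several symbols. Sp7 and Postn had 1 probe set each, so a mean over probe sets left them as they were. The floor at the 75th percentile left a ratio for 1 gene, Sparc. Over the alternatives that gave it a value, the log2 ratio of Postn ran from 0.201 to 0.218 at 0.5 h, from 0.517 to 0.57 at 1 h and from 0.561 to 0.585 at 3 h. Only median centring, quantile normalization and cyclic loess could move it, and these rescale the same 4 arrays. Settings were changed 1 at a time, so the 1.5-fold rule was applied only to the deposited scaling. With cyclic loess the 3 h ratio of Postn was 0.585, level with the log2 of 1.5-fold at the digits given. Its count of 0 by that rule therefore sits at the cutoff. With the floor at the 75th percentile Postn had no ratio, being under that floor. With no floor, the median of the osteoblast genes at 1 h was 0.145, since 7 genes then had a ratio, 4 of them from dim signal. With the 1.5-fold rule, the count was 1 in the bone matrix list at 1 h, 1 in the gamma-carboxylation list at each of 0.5, 1 and 3 h, and 2 in the BMP list for 3 h minus 1 h. List counts for steps between LIPUS times were added after seeing the data. In the other 484 of 490 values, a count was 0 as in the main setting, or a ratio kept to within the technical SD of it. This tally includes settings that could not have moved the value. Sp7 lies so near the floor that its ratio says little, and the number of arrays limits every value.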
